A study of Rattus norvegicus with 35 samples.

Results

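Keratins are the intermediate filament proteins of epithelial cells, and 31 keratin genes, measured by 33 probes, were followed through the olfactory epithelium of newborn, adult and old rats. Of these, 13 genes (15 probes) carry a name of the form Krt and a number in the scanner files. The other 18, Krt15 among them, appear there under older names such as Ka15 or Kb1 and were found through their current RefSeq symbol. Together they are 31 of the 35526 gene symbols on the array. RefSeq lists 55 protein-coding keratin symbols for the rat, and 24 of them were matched to no probe and are not analysed here. The tissue came from Brown Norway rats and was hybridised to 35 single-colour (Cy3) Agilent arrays. L1, L2, L3 and L4 are the pups of 4 litters, 3 to 5 days old (4 pups in L1 and 5 in each other litter), with 1 side of the nose and 1 array for each pup. The adult group was 4 males of 9 weeks and the old group 4 males of 22 months, each with 2 arrays, for nostrils A and B, which were averaged so that the rat is the replicate. The sex of the pups is not given in the sources used here, no treatment is named, and littermates share a mother.

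A keratin filament is built from pairs of a type I (acidic) and a type II (basic) chain, and the pair a cell uses marks its layer: Krt5 with Krt14 in basal cells, where Krt15 is a further type I chain, Krt8 with Krt18 in simple epithelia, Krt1 with Krt10 in cornifying epidermis and Krt4 with Krt13 in the non-cornified lining of the mouth. In the olfactory epithelium, Krt5 and Krt14 are used as markers of horizontal basal cells, the reserve stem cells that lie on the basement membrane, and Krt8 and Krt18 as markers of sustentacular cells, the supporting cells that reach the nasal surface. Hair keratins and the keratins of the inner root sheath belong to the hair follicle.

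The probe sequences of the keratins that carry the comparisons below are given here, because keratins are alike in sequence and the value of each rests on a single probe of 60 bases. Capitals mark the longest run of bases that a probe shares with a probe of another keratin gene on the array, and each line is in the order in which the scanner files give it.
Krt5: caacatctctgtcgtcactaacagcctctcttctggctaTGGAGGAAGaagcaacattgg
Krt14: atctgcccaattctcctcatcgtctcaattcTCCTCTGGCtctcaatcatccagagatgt
Krt14, second probe: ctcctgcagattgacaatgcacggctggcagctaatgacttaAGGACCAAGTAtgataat
Krt15: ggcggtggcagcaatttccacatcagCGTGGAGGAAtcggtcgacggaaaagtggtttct
Krt8: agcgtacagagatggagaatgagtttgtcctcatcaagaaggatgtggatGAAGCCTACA
Krt18: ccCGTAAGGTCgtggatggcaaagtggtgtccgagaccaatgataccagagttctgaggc
Krt18, second probe: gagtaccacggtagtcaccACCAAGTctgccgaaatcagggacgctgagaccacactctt
Krt13: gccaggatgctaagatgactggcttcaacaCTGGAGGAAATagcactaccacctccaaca
Krt76: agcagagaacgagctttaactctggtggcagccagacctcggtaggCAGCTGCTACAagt
The runs shared with another keratin probe were short, from 7 bases for the second Krt18 probe to 11 bases for Krt13, Krt76 and the second Krt14 probe. Over the 33 probes the longest was 15 bases, shared by the inner root sheath keratin Krt26 and the hair keratin Krt32. These runs compare probes with probes only, and whether a probe matches the transcript of another keratin was not tested. Every one of the 33 sequences can be read in at least 1 frame without a stop codon.

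The files place the probes on the rn3 build of the rat genome. The type I genes lay together, with 17 probes between chr10:88194766 and chr10:89203988, a stretch of 1.01 Mb, and the type II genes lay in a stretch of 0.542 Mb, with 12 probes between chr7:140252063 and chr7:140794386. Krt14 was listed at chr10:89158824-89159500, Krt15 at chr10:89086549-89086608, Krt13 at chr10:89071660-89072751, Krt76 at chr7:140658740-140658799 and Krt8 at chr7:140793404-140794386, all on the minus strand. The Krt5 probe and the second Krt14 probe had no listed position. The 2 Krt18 probes were listed at chr2:79989405-79989464 and chr10:66120715-66120774, whereas RefSeq places Krt18 on chromosome 7. Which locus gave the Krt18 signal is therefore uncertain, although both probes list a Krt18 transcript. The Krt33a probe lists transcripts of Krt33a, Krt33b and Krt31, and its value may belong to any of them. Whether it matches other keratins as well was not tested.

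A level is the background-subtracted spot intensity divided by the median of its array, on the log2 scale, so that 0 is the array median and -6.64 is the floor given to any lower value. Levels of different probes are not compared with each other. The array median lay between 42.1 and 87.8 intensity units in pups, between 82.4 and 164 in adults and between 37.2 and 55.3 in old rats, and 24493 to 28376 of 41012 probes were above background on an array. The adult arrays were scanned on days that hold no other group, so that adult age and scan day cannot be told apart. L1 and the old rats share a scan day. The defining genes of the labelled tissue were present: all 8 measured markers of mature olfactory sensory neurons and all 8 of sustentacular cells were expressed in every group.

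A keratin was called expressed when its probe was above background on at least 3 arrays of a litter or on at least 6 of the 8 arrays of adult or old rats. By this measure L1 expressed 19 of 31 keratins, L2 14, L3 18 and L4 17, whereas adults and old rats expressed 11 each. Of all genes, L1 expressed 65.0%, L2 61.1%, L3 63.1%, L4 63.6%, adults 62.0% and old rats 61.2%. When a spot needed only to be positive and significant, the keratin counts were 21, 19, 19 and 20 in the litters, 15 in adults and 18 in old rats. The 10 expressed in all 6 groups were Krt5, Krt14 and Krt15 of basal cells, the simple epithelial Krt7, Krt8, Krt18 and Krt19, and Krt1, Krt17 and Krt33a. Krt12, Krt20, Krt25 and Krt73 were expressed in all 4 litters and in neither older group. Krt12 is the keratin of corneal epithelium, Krt20 that of gut lining and Merkel cells, and Krt25 and Krt73 belong to the inner root sheath. The 12 keratins expressed in no group were Krt10, Krt24, Krt75, the epidermal Krt9 and Krt77, the inner root sheath keratin Krt72, Krt90 and the hair keratins Krt32, Krt34, Krt39, Krt82 and Krt84. Of these, 6 (Krt9, Krt34, Krt39, Krt72, Krt77 and Krt82) were above background on none of the 35 arrays.

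**Figure D1:**
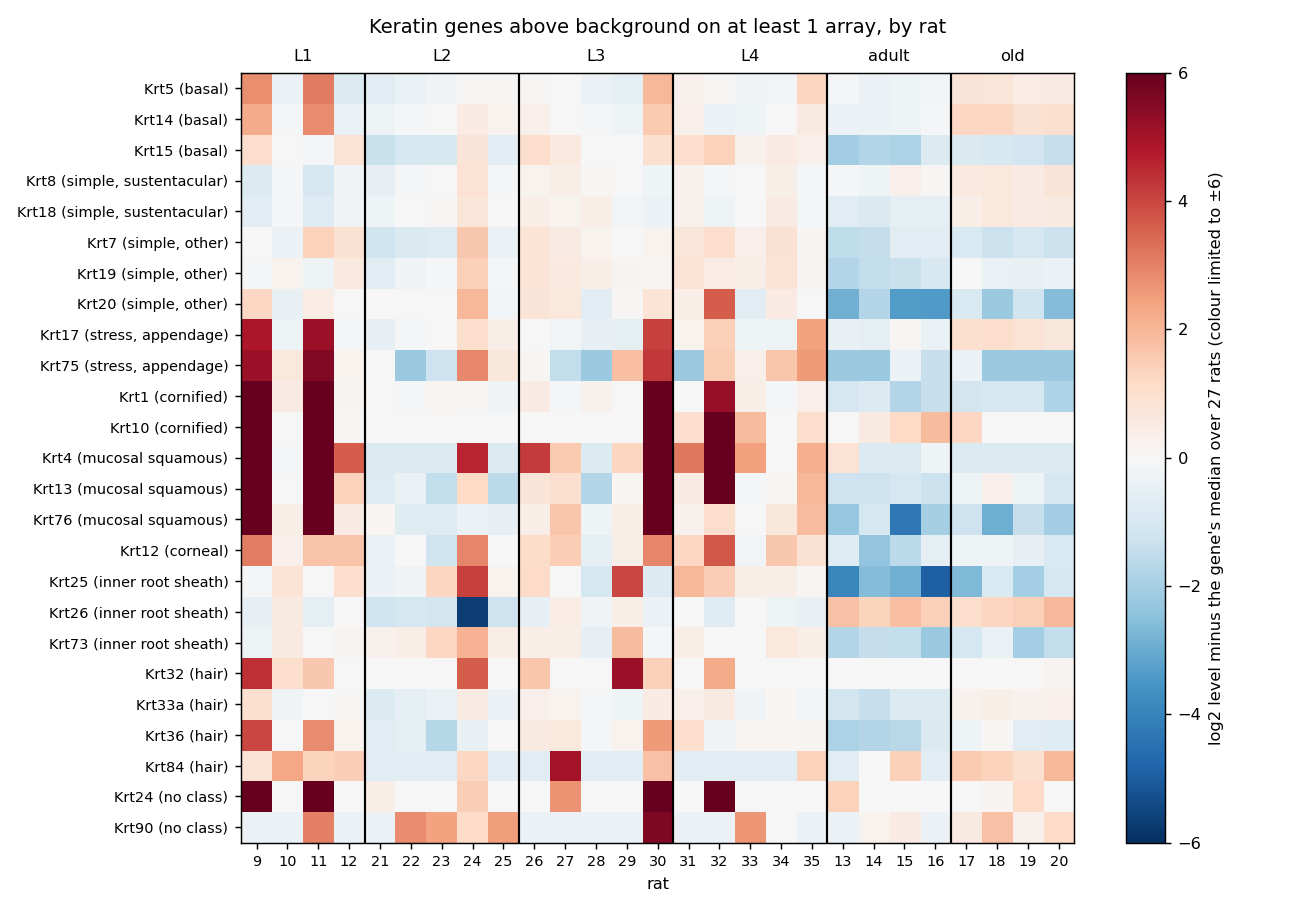
Level of the 25 keratin genes that were above background on at least 1 array (rows, with their class), in each of the 27 rats (columns, ordered by group), shown as the log2 level minus the gene's median over all rats, with the colour limited to 6 on either side. Pups 9 and 11 of L1, 30 of L3 and 32 of L4 stand out in Krt1, Krt4, Krt10, Krt13 and Krt24, whereas Krt15, Krt19 and Krt20 are low across the adult rats.

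Age groups were compared in 1 fit over all probes, with a call at an adjusted p under 0.01, and the 3 comparisons share their samples. Newborn against adult, 10 of the 31 keratins were higher in pups (27.6% of all genes were higher) and 1 was lower (18.0% of all genes), while 20 were not called. After quantile normalization the counts were 8 higher and 2 lower, and after normexp background correction and quantile normalization 4 higher and 2 lower. At a fitted fold of at least 5, 3 were higher (2.31% of all genes) and 0 lower (1.70%). These 3, Krt12, Krt20 and Krt25, were above background on no adult array, and their bounds, given below, are under 5. Newborn against old, 5 keratins were higher (20.3% of all genes) and 3 lower (22.3%), and at a fold of at least 5 there was 1 higher (2.90%) and 0 lower (1.99%). With normexp and quantile normalization, 3 were higher and 3 lower. Adult against old, 0 keratins were higher in adults (10.2% of all genes) and 3 were lower (21.3%), with 0 in either direction at a fold of at least 5 (1.17% and 1.26%). The shares called lower in the first group were thus 1, 3 and 3 of 31 against backgrounds of 18.0%, 22.3% and 21.3%. Of the 13 genes that carry a Krt name in the files, 7 were higher and 0 lower in pups than in adults, 3 higher and 2 lower in pups than in old rats, and 0 higher and 2 lower in adults than in old rats. The median log2 change over the 31 keratins was 1.29 for pups against adults, 0.75 for pups against old rats and -0.61 for adults against old rats, beside 0.12, -0.04 and -0.16 for all genes. After quantile normalization, which forces the arrays to 1 distribution, the all-gene medians were 0.02, -0.04 and -0.03, so changes between pups or old rats and adults are to be read relative to these shifts. At an unadjusted p under 0.05 the counts were 15, 15 and 5 of 31, where 58.1%, 56.3% and 48.1% of all genes passed.

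Without the 4 pups described below for Krt13 (9, 11, 30 and 32), a choice made after the values were seen, the counts were 12 higher and 1 lower in pups than in adults (27.7% and 17.0% of all genes), 7 higher and 4 lower in pups than in old rats (20.3% and 20.6%), and 0 higher and 5 lower in adults than in old rats (10.6% and 22.0%). Leaving out the highest pups of a gene lowers its pup mean and its spread by itself. All values without these pups, here and below, are therefore descriptive.

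**Figure D2:**
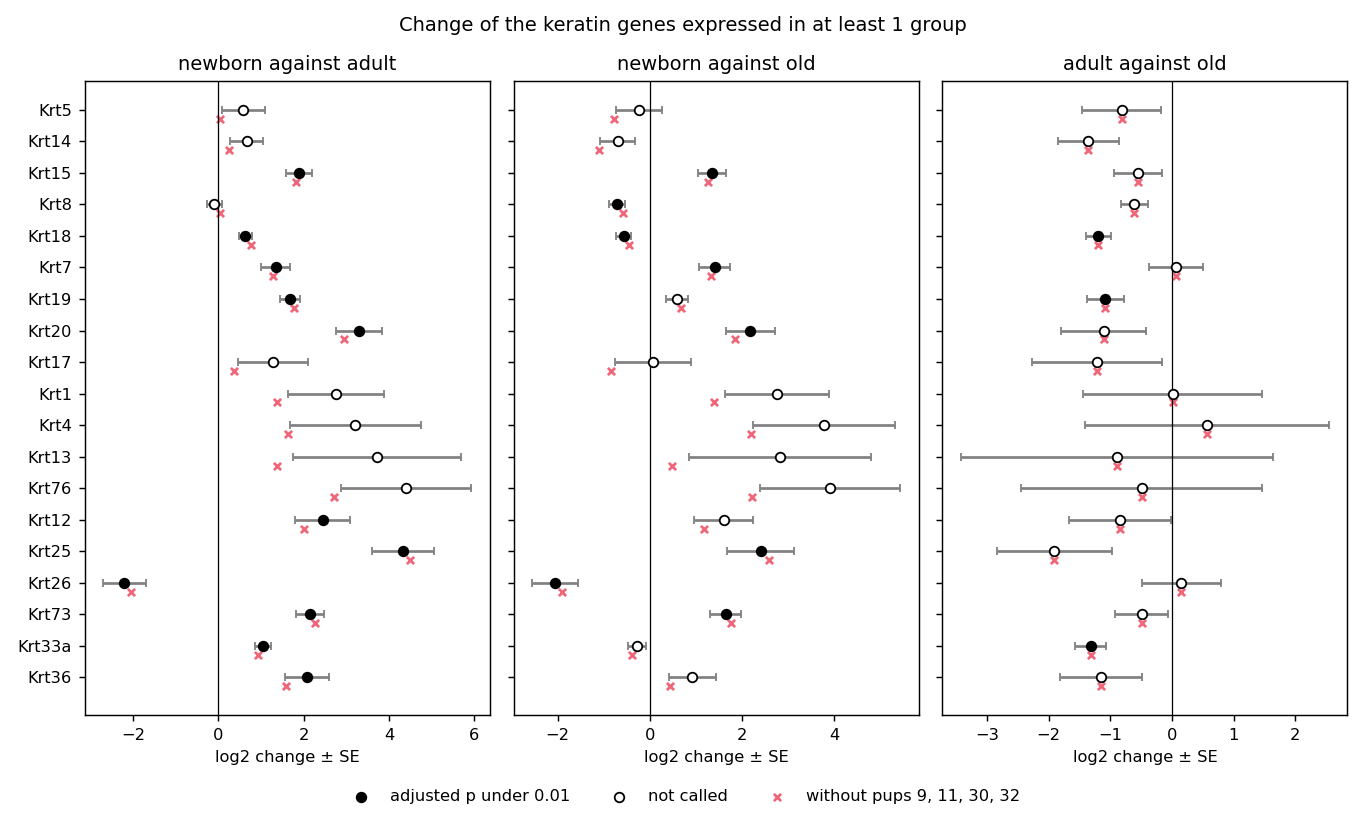
Log2 change (first group minus second) with its standard error for the 19 keratin genes expressed in at least 1 group, in the 3 age comparisons. Filled points passed the adjusted p of 0.01, open points did not, and crosses give the change without pups 9, 11, 30 and 32. Krt15 changed by 1.90 and 1.34 in pups against adults and old rats, and the standard errors of Krt4, Krt13 and Krt76 are the widest.

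The 3 basal cell keratins did not change together. Krt15 was higher in pups than in both older groups, whereas Krt5 and Krt14 were not called in any of the 3 comparisons. Krt15 lay between 7.82 and 10.57 in the 19 pups (median 9.46), at 7.09, 7.39, 7.27 and 8.37 in the 4 adults and at 8.28, 8.23, 8.03 and 7.80 in the 4 old rats. The 2 older groups overlapped, and only L2 pups reached down into their range. Krt15 was 3.73-fold higher in pups than in adults (log2 1.90 ± 0.30 SE, adjusted p = 9.13e-06) and 2.54-fold above old rats (1.34 ± 0.30, adjusted p = 0.000612). Between adults and old rats the log2 difference was -0.55 ± 0.39 (adjusted p = 0.276). L1 against the old rats, which were scanned on the same day, differed by 1.54 (adjusted p = 0.00519).

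Krt14 lay between 7.39 and 10.65 in pups (median 7.80), at 7.43, 7.44, 7.54 and 7.69 in adults and at 9.04, 9.02, 8.72 and 8.74 in old rats. Every old rat was above every adult, and 3 pups (9, 11 and 30) were above every old rat. The adult level was 2.56-fold below the old one (log2 -1.36 ± 0.50 SE), with an adjusted p of 0.0304 that missed the threshold when the spread was shared with the pups. With only the adult and old rats in the fit the adjusted p was 7.51e-05, and without pups 9, 11, 30 and 32 it was 3.68e-06. After quantile normalization the difference between adults and old rats was -0.88 (adjusted p = 0.158) and was not called. Pups differed from adults by 0.66 ± 0.39 (adjusted p = 0.157) and from old rats by -0.70 ± 0.39 (adjusted p = 0.138). Without those 4 pups the difference from old rats was -1.10 (adjusted p = 1.94e-06), a call that the full set of pups did not give. Pups 9, 11 and 30 were the highest in Krt14, so leaving them out lowers the pup mean and the spread by itself. The values without the 4 pups are therefore descriptive and no test. The second Krt14 probe was dim, above background on 4 of 19 pup arrays and on 2 of 8 adult and 1 of 8 old arrays. With all pups it was called in none of the comparisons. Its 3 highest pups were also 9, 30 and 11, at 1.90, 1.79 and 0.41. Without the 4 pups it was lower in pups than in old rats (-2.28, adjusted p = 0.00202), which is descriptive for the same reason. Which gene this probe measures is uncertain, because RefSeq lists Krt14 as an older name of Krt16 as well.

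Krt5, the type II partner of Krt14, lay between 4.68 and 8.60 in pups (median 5.49), at 5.39, 5.14, 5.22 and 5.33 in adults and at 6.24, 6.21, 5.92 and 5.97 in old rats. As for Krt14, the old rats were all above the adults and pups 11, 9 and 30 (8.60, 8.28 and 7.46) were the highest. Pups differed from adults by 0.58 ± 0.50 on the log2 scale (adjusted p = 0.346) and from old rats by -0.23 ± 0.50 (adjusted p = 0.737), and adults from old rats by -0.82 ± 0.64 (adjusted p = 0.334). With only the adult and old rats in the fit, the last had an adjusted p of 0.000436. After quantile normalization it was -0.47 (adjusted p = 0.623). Without the 4 pups the difference between pups and old rats was -0.77 (adjusted p = 0.00299), which is descriptive because the highest pups were left out.

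**Figure D3:**
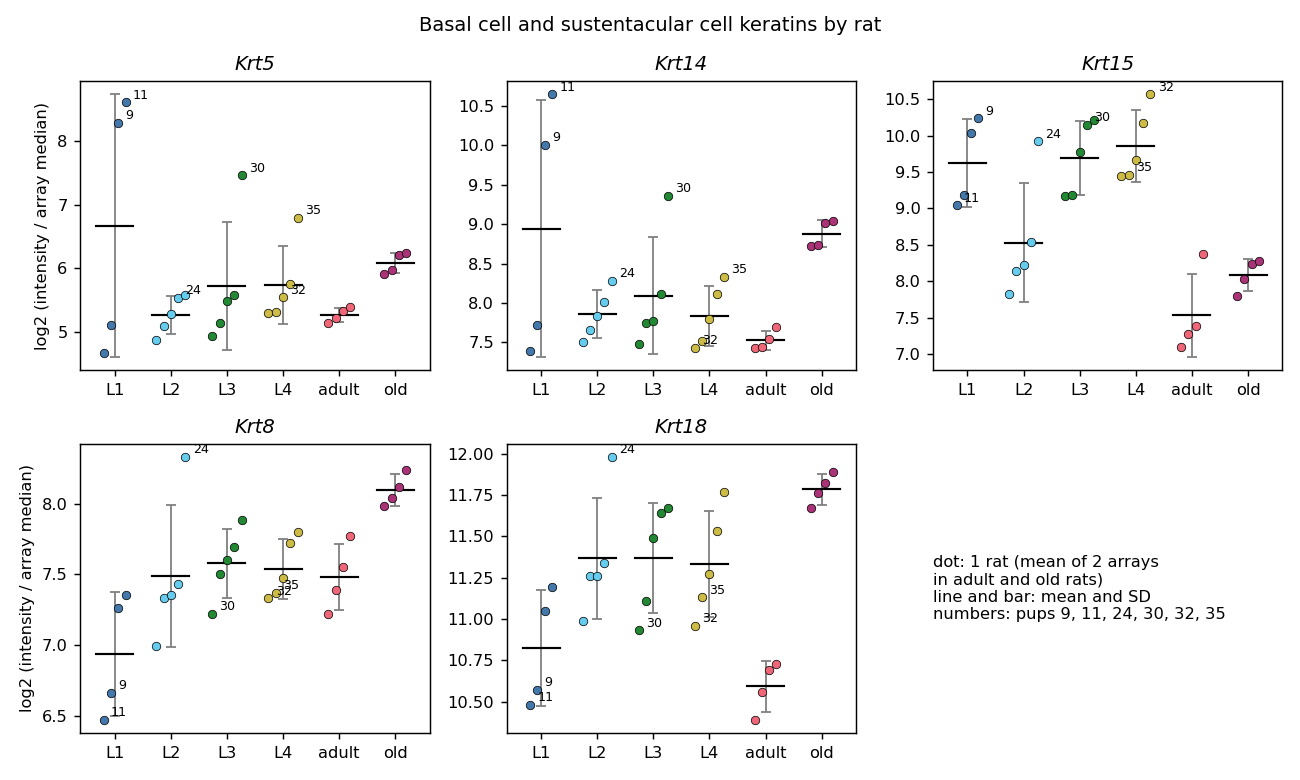
Levels of Krt5, Krt14, Krt15, Krt8 and Krt18 (log2 intensity over the array median) in each rat by group. A dot is 1 rat, the line and bar are the group mean and SD, and the numbers mark pups 9, 11, 24, 30, 32 and 35. The 4 old rats lie above the 4 adults in Krt5, Krt14, Krt8 and Krt18, and pups 9 and 11 are the highest in Krt5 and Krt14 and among the lowest in Krt8 and Krt18.

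Of 9 markers of horizontal basal cells other than keratins, 3 were higher and 2 lower newborn against adult (27.6% and 18.0% of all genes). Newborn against old, 1 was higher and 2 lower (20.3% and 22.3%), and none was called adult against old (10.2% and 21.3%). Newborn against adult, the higher ones were the hemidesmosome integrin chains Itgb4 (0.61) and Itga6 (0.63) and the caveolar protein Cav1 (0.58). The cytoskeletal linker Dst (-1.22) was lower, so that the list moved in both directions. After quantile normalization the newborn against adult counts were 1 higher and 2 lower. The summed level of the list was 192 to 511 times the array median in pups, 194 to 247 in adults and 283 to 319 in old rats. In whole tissue, a smaller number of cells of a type and less RNA in each cell cannot be told apart.

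Krt8 and Krt18, the sustentacular pair, were both lower in pups than in old rats, and Krt18 was also lower in adults than in old rats. Krt8 lay between 6.47 and 8.33 in pups (median 7.37), at 7.39, 7.22, 7.77 and 7.55 in adults and at 8.04, 8.12, 7.98 and 8.24 in old rats. The old rats were above every adult and above all pups other than pup 24 of L2. Krt8 was 1.64-fold lower in pups than in old rats (log2 -0.71 ± 0.17 SE, adjusted p = 0.00119) and differed from adults by -0.10 ± 0.17 (adjusted p = 0.662). Adults differed from old rats by -0.61 ± 0.22 (adjusted p = 0.0283), which was called without pup 24 (adjusted p = 0.00639). With quantile normalization this difference shrank to -0.14 (adjusted p = 0.591). After quantile normalization Krt8 was called lower in pups than in adults (-0.59, adjusted p = 0.000818).

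Krt18 lay between 10.48 and 11.98 in pups (median 11.26), at 10.56, 10.39, 10.73 and 10.69 in adults and at 11.67, 11.89, 11.76 and 11.82 in old rats. No adult overlapped an old rat, and the pups spanned the range between them. Krt18 was 2.29-fold lower in adults than in old rats (log2 -1.19 ± 0.20 SE, adjusted p = 4.43e-05), and the second Krt18 probe differed by -1.29 (adjusted p = 1.15e-05). After quantile normalization the Krt18 difference was -0.50 (adjusted p = 0.0183) and was not called, while the second probe still was (-0.62, adjusted p = 0.00123). Pups were 1.48-fold lower than old rats (-0.56 ± 0.16, adjusted p = 0.00444), a call that did not hold without old rat 18, 19 or 20 (adjusted p = 0.0208, 0.013 and 0.0156). Pups were called 1.55-fold higher than adults (0.63 ± 0.16, adjusted p = 0.00159), but this direction turned after quantile normalization (-0.12, adjusted p = 0.464), the call was lost without adult 14 (adjusted p = 0.0121), and the second probe was not called (0.47, adjusted p = 0.0127). L1 differed from the old rats of the same scan day by -1.16 in Krt8 (adjusted p = 0.0038) and -0.96 in Krt18 (adjusted p = 0.00353).

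Most other sustentacular markers were lower in pups than in both older groups. Of 8 measured, 5 were lower newborn against adult and 6 newborn against old, with none higher and median log2 changes of -1.10 and -1.53. Of all genes, 18.0% and 22.3% were lower. Cyp1a2 (-4.08) and Cyp2g1 (-1.95), cytochrome P450 enzymes of the nasal mucosa, were among the 5 that were lower than in adults. Adult against old, 2 of 8 were lower (Sec14l3 by -1.16 and Cyp2a3 by -0.72), beside 21.3% of all genes. After quantile normalization, however, 0 were lower and 1 was higher. The summed level of the list was 1683 to 3523 times the array median in pups, 3731 to 4487 in adults and 7094 to 7771 in old rats. Neuron markers moved too: all 8 measured were lower in pups than in both older groups (median -2.24 and -2.89), and 3 were lower in adults than in old rats, 1 after quantile normalization. The shares of all genes are those given for the sustentacular markers. The part of these cell types in the keratin differences was not tested.

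Within litters, Krt8 and Krt18 varied from pup to pup together. Over 19 pups, as deviations from the litter mean, Pearson's r was 0.912 (permutation p = 2e-05, adjusted 4e-05) and Spearman's rho 0.911 (permutation p = 2e-05, adjusted 4e-05), and r was 0.876 without pups 24 and 10, the farthest in Krt8. All values of a pup share 1 array and 1 scaling. Krt7 and Krt19, the other pair tested, gave r 0.740 (permutation p = 0.0278, adjusted 0.0278) and rho 0.581 (permutation p = 0.0258, adjusted 0.0258), and r was 0.728 without pups 24 and 11. The permutations, 100000 for each pair, were two-sided and within litters. No correlation is given for Krt5 with Krt14, because pups 9, 11 and 30 stand apart from the other pups in both genes. Pups 9 and 11 also lay below their littermates in Krt8 (6.66 and 6.47, against 7.35 and 7.26). In Krt18 they were at 10.57 and 10.48, against 11.19 and 11.05. The value of r without these pups is not given.

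**Figure D4:**
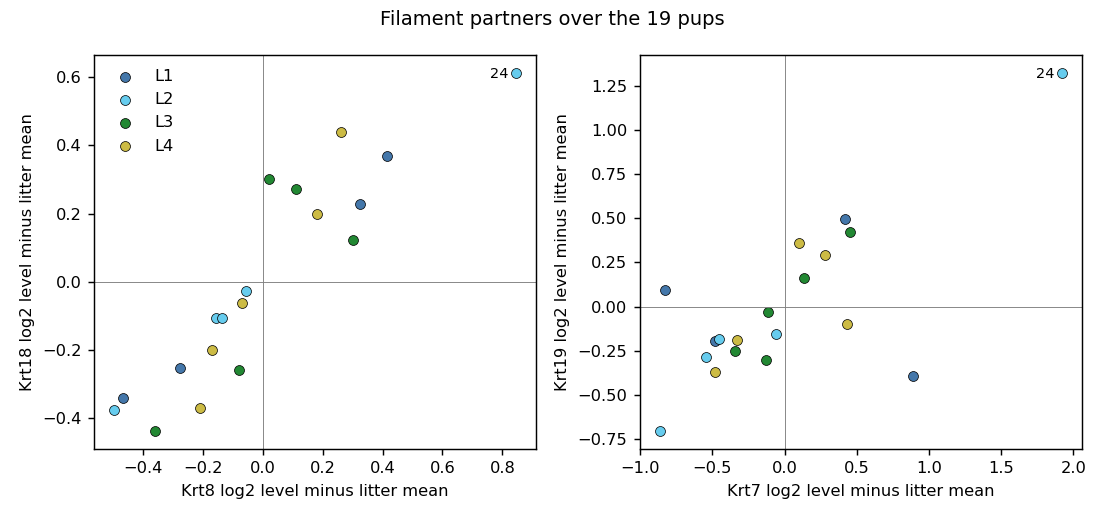
Krt18 against Krt8 and Krt19 against Krt7 in the 19 pups, each as log2 level minus the mean of the pup's litter, coloured by litter. Pup 24 is at the upper right of both plots, and the Krt8 and Krt18 points keep close to a line (r 0.912 with pup 24 and 0.876 without pups 24 and 10).

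The other simple epithelial keratins, Krt7 and Krt19 of ducts and glands and Krt20, were all 3 higher in pups than in adults. Krt19 lay between 6.29 and 8.32 in pups (median 7.11), at 5.16, 5.42, 5.58 and 5.94 in adults and at 6.91, 6.50, 6.46 and 6.56 in old rats. The adults were below every pup and every old rat. Krt19 was 3.18-fold higher in pups than in adults (log2 1.67 ± 0.23 SE, adjusted p = 1.24e-06) and lower in adults than in old rats (-1.08 ± 0.30, adjusted p = 0.00488). The last call was lost after quantile normalization (-0.71, adjusted p = 0.0305) and without any 1 of adults 13, 14 and 15 and old rats 17 and 20. Krt7 lay between 5.03 and 7.81 in pups (median 6.44), at 4.67, 4.76, 5.59 and 5.58 in adults and at 5.30, 4.92, 5.18 and 4.94 in old rats, and it was 2.54-fold and 2.66-fold higher in pups (1.35 ± 0.34, adjusted p = 0.00159, and 1.41 ± 0.34, adjusted p = 0.00115). After quantile normalization the Krt7 difference from adults was 1.01 (adjusted p = 0.0109) and was not called. The lowest pups, of L2, overlapped the older rats.

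Krt20 was above background on 18 of 19 pup arrays, 0 of 8 adult arrays and 1 of 8 old arrays. Since no adult array measured it, the fold of pups over adults is at least 3.20 (adjusted p = 1.16e-05, and 0.0432 after normexp and quantile normalization). This bound sets the mean of the pups against the lowest signal that stood well above background on each adult array, or the probe's own signal where that was higher. Against old rats, of which 1 of 8 arrays measured it, the fitted log2 change was 2.18 ± 0.54 (adjusted p = 0.00137). It was not called without old rat 20 (1.89, adjusted p = 0.0122), after normexp and quantile normalization (0.43, adjusted p = 0.106), by the methods' t-test (adjusted p = 0.012) or with L1 as the only litter (2.05, adjusted p = 0.0145). Pup 24 of L2 was the highest of all pups in Krt7 (7.81), Krt19 (8.32), Krt8 (8.33) and Krt18 (11.98). Its level of Muc5ac, a gel-forming mucin of goblet cells, was 7.92, against 0.56 to 2.58 in the other L2 pups. Muc5ac was also high in pups of the other litters, at 7.52 in pup 12, 6.95 in pup 9, 6.75 in pup 32 and 6.39 in pup 26. The part of secretory cells in these values was not tested.

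Several keratins of squamous and cornified epithelium were far higher in the same few pups than in the others. The epidermal Krt9 and Krt77, above background on no array, were not among them. Krt13, a keratin of the mouth lining, was at 10.24 in pup 9 and 8.82 in pup 11 of L1, 9.35 in pup 30 of L3 and 5.24 in pup 32 of L4. The next pup was at -0.45 and the median of the 19 was -1.96, and adults lay from -3.72 to -3.42 and old rats from -3.44 to -2.11, above background on 0 of 8 arrays each. No L2 pup was above -1.22. The same 4 pups were the 4 highest for 5 of the 31 keratins, namely Krt1, Krt4, Krt10, Krt13 and Krt24. Krt10, an epidermal keratin, was at 6.43, 4.45, 4.85 and 4.20 in pups 9, 11, 30 and 32 and at -4.72 or below in the other 15 pups, and it was above background on those 4 pup arrays alone of all 35. Pups 9, 11 and 30 were the 3 highest for 11 of the 31, the 5 above with Krt5, Krt14, Krt17, Krt36, Krt75 and Krt76.

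**Figure D5:**
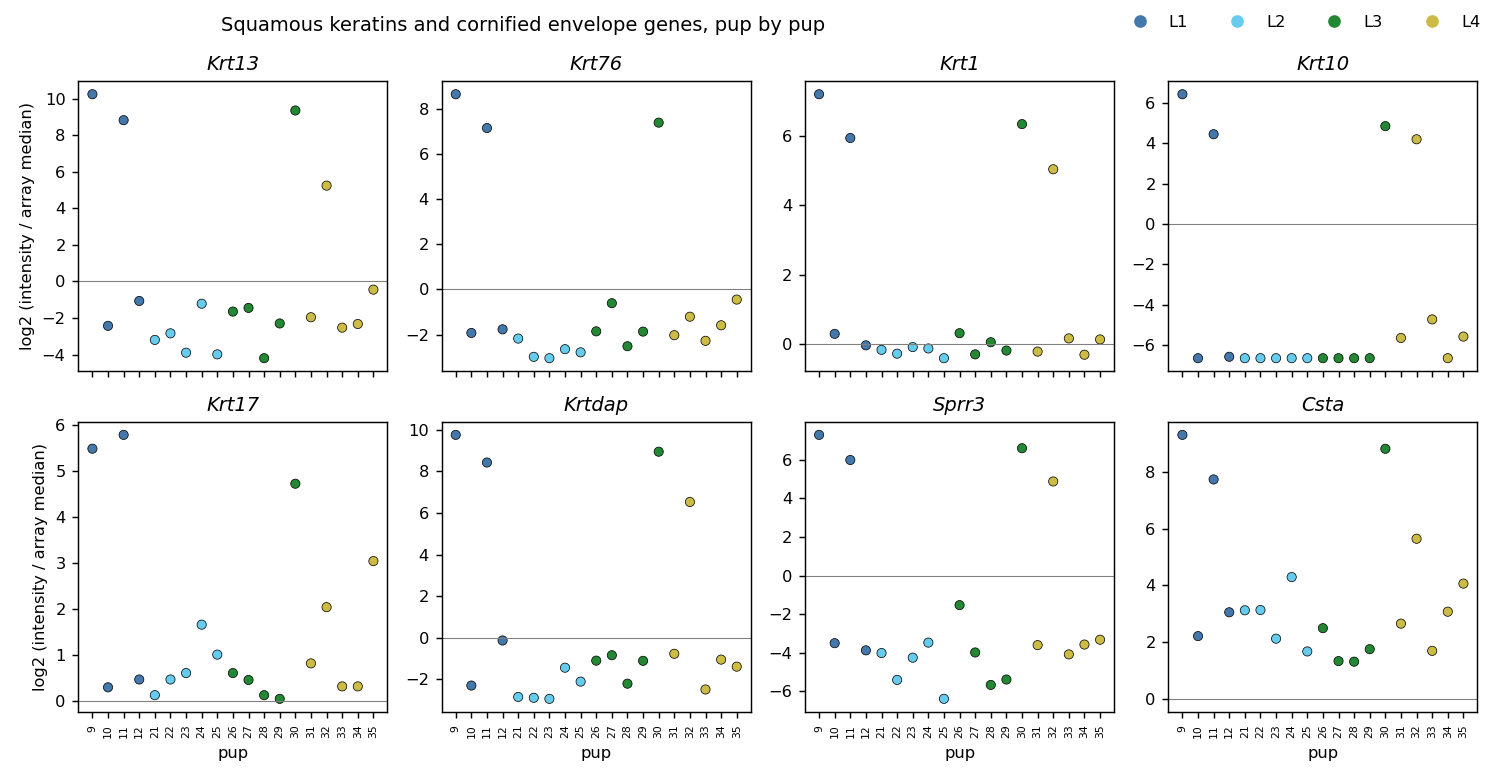
Levels (log2 intensity over the array median) of 5 keratins and of Krtdap, Sprr3 and Csta, genes of the cornified envelope list, in each of the 19 pups, coloured by litter. Pups 9, 11 and 30 are the 3 highest in each panel, and pup 32 is the 4th highest in all but Krt76 and Krt17.

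Krt76, a keratin of the palate, was at 8.66, 7.16 and 7.40 in pups 9, 11 and 30, whereas pup 32 was at -1.21, within the other pups (-3.05 to -0.45). Krt17, which is induced in stressed and appendage epithelium, was at 5.48, 5.78 and 4.72 in these 3 pups, followed by pup 35 of L4 at 3.04. Pup 35 was also the 4th highest in Krt5 (6.79), Krt14 (8.33) and Krt76 (-0.45). Krt1 was at 7.20, 5.94, 6.34 and 5.04 in pups 9, 11, 30 and 32, and between -0.40 and 0.32 in the other pups. These other pups were still above the adults (-1.94 to -0.99) and the old rats (-2.01 to -1.17).

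With all pups in the fit, no squamous, cornified or stress keratin was called in any age comparison (0 of 3 mucosal, 0 of 4 epidermal, 0 of 2 stress keratins). Of all genes, 27.6% were higher and 18.0% lower newborn against adult, 20.3% and 22.3% newborn against old, and 10.2% and 21.3% adult against old. Without the 4 pups, 1 mucosal (Krt76), 1 epidermal (Krt1) and 0 stress keratins were called, as higher, in pups against either older group. Of all genes, 27.7% and 20.3% were then higher than in adults and in old rats. The classes hold 2 to 4 genes, so counts of 0 or 1 say little about a class. Krt1 differed by 2.76 ± 1.13 newborn against adult (adjusted p = 0.0425) and by 2.77 ± 1.13 newborn against old (adjusted p = 0.044). Without the 4 pups these differences were 1.38 (adjusted p = 8.72e-07) and 1.39 (adjusted p = 1.07e-06). No adult array measured Krt76 or Krt13 above background, so their differences from adults are bounds. Krt76 was at least 4.28-fold higher in pups by its mean, which was not called (adjusted p = 0.0167), and the adjusted p without the 4 pups was 4.17e-05. For Krt13 the bound was at least 5.56-fold, also not called (adjusted p = 0.116, and 0.0268 without them).

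Genes of the cornified envelope, the protein shell of dying squamous cells, were highest in the same pups. Of 12 measured, 7 had pups 9, 11, 30 and 32 as the 4 highest (Ivl, Flg, Sprr3, Evpl, Krtdap, Cnfn and Csta) and 9 had pups 9, 11 and 30 as the 3 highest. Krtdap, a secreted protein of keratinocytes, was at 9.76, 8.43, 8.95 and 6.53 in the 4 pups and at -2.95 to -0.14 in the others. The summed level of this list was 174 to 2021 times the array median in L1 pups, 233 to 399 in L2 pups, 221 to 1335 in L3 pups and 202 to 406 in L4 pups, against 122 to 143 in adults and 175 to 187 in old rats. Outside the 4 pups most of this sum was Cstb, which lay between 7.05 (pup 12) and 8.39 (pup 24) over all pups. In those other pups Ivl, Flg, Sprr3, Krtdap and Cnfn were below the array median, and Csta, Evpl and Ppl above it. Of 10 desmosome genes, the cell junctions that anchor keratin filaments, 5 had pups 9, 11 and 30 as the 3 highest. No gene of the other 7 lists (horizontal basal, sustentacular, hair follicle, ciliated and secretory cells, neurons and other intermediate filaments) had that order. Of the hair follicle list, Msx2, Shh and Tchh were nevertheless highest in pups 9 and 11 of L1. Msx2 was at 3.83 and 5.66, Shh at 0.28 and 2.41 and Tchh at 0.49 and 0.15, against at most 3.55, -0.15 and -0.22 in the other 17 pups. The rest of the list did not share this order. Padi3 (5.64), Dlx3 (1.01) and Lef1 (0.56) were highest in pup 11, but pup 9 lay within the other pups. S100a3 (1.12 and 1.48) and Edar (-3.65 and -3.56) lay within the other pups in both, and Hoxc13 and Dsg4 were above background on no array. The part of squamous epithelium and of hair follicles in these values was not tested.

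Of the 7 hair keratins 2 (Krt33a and Krt36), and of the 4 inner root sheath keratins 3 (Krt25, Krt26 and Krt73), were expressed in at least 1 group, and they went different ways with age. Krt25 was above background on 17 of 19 pup arrays, 0 of 8 adult and 2 of 8 old arrays, and its fold of pups over adults is at least 3.79 (adjusted p = 1.74e-05, and 0.0423 after normexp and quantile normalization). Against old rats, with only those 2 of 8 arrays measured, the fitted log2 change of Krt25 was 2.41 ± 0.72 SE (adjusted p = 0.00715). This call was lost in 8 of 17 other settings, among them normexp with quantile normalization (0.59, adjusted p = 0.117), scaling to the 75th percentile (2.12, adjusted p = 0.0128) and scan day as a random block (2.46, adjusted p = 0.0161). It was also lost without any 1 of the 4 old rats (adjusted p 0.0111 to 0.041) and, narrowly, without pup 10 or 12. Krt73 was above background on 18 of 19 pup arrays and on none of the 16 older arrays, with bounds of at least 2.50-fold over adults (adjusted p = 7.04e-06) and at least 2.02-fold over old rats (adjusted p = 0.000206). The call over old rats was lost by the methods' t-test (adjusted p = 0.0241) and with L1 as the only litter (1.33, adjusted p = 0.0257). Krt12, the corneal keratin, was above background on 16 of 19 pup arrays and 0 of 8 adult arrays, and was at least 3.63-fold higher than in adults (adjusted p = 0.00223), which was not called without adult 14 (adjusted p = 0.0184) or 15 (adjusted p = 0.0101). The call was also lost after normexp and quantile normalization (0.60, adjusted p = 0.034). Against old rats the fitted log2 change of Krt12 was 1.61 ± 0.64 (adjusted p = 0.0388) and was not called.

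Krt26 ran the other way. It was above background on 13 of 19 pup arrays, none of them of L2, and on all 16 older arrays. It lay between -6.64 and -0.49 in pups (median -1.45), at 0.76, 0.31, 0.79 and 0.43 in adults and at 0.03, 0.28, 0.41 and 0.95 in old rats. All pups were below all older rats, and only pup 24 was at the floor. Krt26 was 4.62-fold lower in pups than in adults (log2 -2.21 ± 0.50 SE, adjusted p = 0.000559) and 4.16-fold lower than in old rats (-2.06 ± 0.50, adjusted p = 0.00125). Neither call held with the floor set before scaling (adjusted p = 0.0459 and 0.0642), and after normexp and quantile normalization the differences were -0.81 and -0.62. Adults and old rats differed by 0.15 ± 0.64 (adjusted p = 0.894).

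Krt33a was the only gene of the hair class expressed in every group. Whether its probe also matches keratins outside that class was not tested, so its level cannot be assigned to hair keratins. Krt33a lay between 6.07 and 7.88 in pups (median 6.91), at 5.80, 5.54, 6.11 and 6.11 in adults and at 7.19, 7.28, 7.16 and 7.20 in old rats. The adults were below every old rat. Krt33a was 2.49-fold lower in adults than in old rats (log2 -1.32 ± 0.25 SE, adjusted p = 0.00015) and 2.06-fold higher in pups than in adults (1.04 ± 0.19, adjusted p = 6.67e-05). The call between adults and old rats was narrowly lost by the methods' t-test (adjusted p = 0.0106). Pups and old rats differed by -0.27 ± 0.19 (adjusted p = 0.258). Krt36, a further hair keratin, was above background on 10 of 19 pup arrays and on none of the 16 older arrays, and was at least 1.85-fold higher in pups than in adults (adjusted p = 0.00129). Of 10 genes of the hair follicle list, 4 were higher and 1 lower newborn against adult (27.6% and 18.0% of all genes). Newborn against old, 3 were higher and 1 lower (20.3% and 22.3%). Padi3 (1.53 and 2.58), which modifies hair proteins, was higher in both. The follicle regulator Hoxc13 and the hair desmoglein Dsg4 were above background on no array, and the summed level of the list was 8.18 to 113 times the array median in pups, 6.08 to 7.98 in adults and 7.73 to 9.10 in old rats.

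Among litters, 0 of the 31 keratins were called by limma's F test (23.0% of all genes were called), and 6 had an unadjusted p under 0.05 (44.7% of all genes). Krt15 came nearest (adjusted p = 0.0135), and its litter mean was 8.53 in L2 and 9.62, 9.70 and 9.86 in L1, L3 and L4. Krt26 (adjusted p = 0.0209) was also lowest in L2, at -3.06 against -1.31 to -1.06 in the other litters. Without pup 24, 3 keratins were called, and without pup 10 or pup 12 1 was.

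Within litters, the keratins ranged from steady to highly variable. The within-litter SD had a median of 1.10 log2 units over the 19 keratins expressed in at least 1 litter, beside 0.234 for all 23766 genes expressed in a litter. Krt13 (4.41), Krt4 (3.43), Krt76 (3.34) and Krt1 (2.53) had the highest values, and the lowest were those of Krt18 (0.34), Krt8 (0.36), Krt33a (0.42) and Krt19 (0.49). The sustentacular pair thus lay at percentiles 71.7 and 74.6 of the expressed genes and Krt5 at percentile 97.1. Nostrils A and B of the same adult or old rat differed, at the median of the 8 rats, by 0.0975 log2 units in Krt18, 0.113 in Krt8, 0.165 in Krt14, 0.218 in Krt5 and 0.428 in Krt15.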

How the data were processed

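Total RNA of olfactory epithelium was hybridised to Agilent 4x44K rat arrays. Per the file headers, the deposited intensity values were made with Agilent Feature Extraction, which subtracted local background and removed spatial trends, and genome positions are of build rn3. The authors' deposited series table holds ratio values on a linear scale, scaled per array and then per probe, with array medians of 0.723 to 0.978. For 99.77% of its 41012 rows the distance to the scanner levels was 1 constant across arrays (SD under 0.05 log2), which leaves the centring of each probe unknown and the direction the same. It served as an alternative.

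Non-control spots of a probe were averaged (outlier-flagged spots left out), divided by the array median over 41012 probes, floored at 0.01 and log2-transformed. Adult and old rats entered as the mean of their 2 arrays. Groups (L1 to L4, adult, old) were fitted with limma 3.58.1 in R 4.3.3 (lmFit, eBayes with trend), newborn being the mean of 4 litter means, with Benjamini-Hochberg adjustment over all probes and calls at 0.01. A gene was represented by its probe with the highest mean level. A probe was above background where it was positive and significant and well above background. No keratin spot was saturated. Symbols came from the files, updated through RefSeq accessions (10852 probes) or synonyms (9167 probes). The number of arrays limits the precision. The fit was tested on simulated data. Named with full values were Krt5, Krt14, Krt15, Krt8, Krt18 and the 3 largest called changes in each direction of each comparison; the other keratins, and pups 9, 11, 24, 30, 32 and 35, were chosen after their values were seen. Members and the 9 gene lists were chosen with earlier results of these data known. Alternatives covered scaling, background correction, floor, filters, batch and rat blocks, tools and leaving out each rat. Permutation tests used Python 3.11.15 with 100000 resamples.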

Additional observations from a re-analysis of the deposited data

Results flagged for a closer look

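Of 97 sets of 1 keratin gene in 1 group of 4 or 5 rats, 13 held a rat whose gap to its nearest neighbour passed Dixon's limit. For a single set chance gives about 1 in 20. The same rats recur across keratins that vary together, so the 13 of 97 cannot be set against that rate. Levels are log2 intensity over the array median. Pup 30 of L3 was the rat set apart in 6 genes: Krt1 at 6.34 (litter median 0.06), Krt5 at 7.46 (5.49), Krt13 at 9.35 (-1.65), Krt17 at 4.72 (0.46), Krt36 at 0.54 (-1.50) and Krt76 at 7.40 (-1.86). Pup 32 of L4 was set apart in 3 genes, with Krt1 at 5.04 (0.14), Krt13 at 5.24 (-1.96) and Krt20 at 2.50 (-0.76). Pup 24 of L2 was set apart in Krt4 at -1.26 (-6.64), Krt19 at 8.32 (6.81) and Krt20 at 0.86 (-1.15). In Krt4 its littermates were all at the floor, so that its gap is the whole range. Old rat 20 was the lowest of its group in Krt1 at -2.01 (-1.26). In L1, where pups 9 and 11 were both high, the gap to the nearest rat cannot set 1 of them apart. The cause of these gaps was not tested.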

How the results depend on the processing

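The count of keratins called newborn against adult was 11, and it was 6 with normexp background correction and quantile normalization and 5 with only the probes expressed in every group, where fewer genes were tested. Newborn against old it was 8, against 4 with only the expressed probes, 5 with L1 as the only litter, and 13 with the rat as a random block, with litter means as replicates or by the methods' t-test. Adult against old it was 3, against 1 with either quantile normalization, 5 with the rat as a random block, with litter means as replicates or without the 4 pups, and 7 with only the groups compared. Among litters it was 0, and 1 after quantile normalization. Leaving out 1 rat at a time gave 8 to 12, 5 to 9 (5 without old rat 20), 2 to 4 and 0 to 3. Keratins above background in old rats numbered 11, and 18 by positive and significant spots alone. The change of Krt18 newborn against adult turned from 0.63 to -0.12 after quantile normalization and to -0.00421 after normexp and quantile normalization. The cause of these shifts was not tested. Of 426 alternative values of named genes, 380 kept direction and side of the threshold, 26 lost the call, 18 gained one and 2 turned. Of 675 values with 1 rat left out, 656 kept both, 18 lost the call and 1 gained one. No paired analysis was possible because the labels' replicate numbers are rat numbers that no 2 groups share. Dim probes limit most hair and epidermal keratins to bounds.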

Other observations

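The other intermediate filament genes of the epithelium, nerve and stroma were often higher in pups. Of 12 measured, 7 were higher newborn against adult and 8 newborn against old, and none was lower. Of all genes, 27.6% and 20.3% were higher, and 18.0% and 22.3% lower. Des, the desmin of muscle, was higher by 4.08 and 3.40 on the log2 scale, Nes, the nestin of progenitor and developing cells, by 3.10 and 2.98, and Lmnb1, a lamin of the nuclear envelope, by 0.70 and 2.10. Adult against old, 2 of 12 were higher in adults (Lmnb1 by 1.39 and Lmnb2 by 0.82), beside 10.2% of all genes. After quantile normalization the counts were 5, 8 and 4 higher, with none lower.

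Among 10 desmosome genes, 4 were higher and 1 lower newborn against adult (27.6% and 18.0% of all genes). These counts became 1 higher and 2 lower after quantile normalization. Among those called, the 3 with the largest changes were the desmoglein Dsg2 (-1.39), the plakophilin Pkp1 (1.31) and Perp (1.21). Of the 12 cornified envelope genes, 3 were higher newborn against adult (Csta, Tgm1 by 2.84 and Cstb by 1.09) and 2 newborn against old (Csta and Cstb). The shares of all genes were 27.6% and 20.3%. Csta, a cystatin of squamous cells, had a mean level of 3.75 in pups, -5.12 in adults and -3.49 in old rats. The pup mean was raised by pups 9, 11, 30 and 32, at 9.3, 7.73, 8.81 and 5.64, whereas the other pups lay between 1.31 and 4.29. Ciliated cell genes (1 of 9 higher newborn against adult, 0 after quantile normalization) and secretory cell genes (4 of 9 higher newborn against adult, 3 of 9 lower newborn against old) are listed as values only. Of all genes, 27.6% were higher newborn against adult and 22.3% lower newborn against old.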
